A study of Rattus norvegicus with 4 samples.

Results

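The genes described here are 6 genes for subunits of the transcription factor AP-1 (Fos, Fosl1, Fosl2, Jun, Junb and Jund) together with Atf3, chosen by name. The choice was made with earlier results of these data known. Each was read from probes whose RefSeq accession maps to its current rat symbol, and where a gene had several probes the brightest one was taken. All 7 had a named probe, among 8963 genes with one on the array, and all 7 were well above background on all 4 arrays, so none was lost to the filter on dim probes.

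RNA came from NRK-52E, a line of rat kidney tubule epithelial cells, on 1-colour Agilent arrays. Confluent cultures spent 1 h in DMEM without H2O2 (the control) or with 0.003, 0.006 or 0.009% H2O2, then were washed and kept 12 h in DMEM without serum, so all 4 cultures, the control included, had been deprived of serum. There was 1 array per dose and no replicate, so no value below has a spread between cultures. Cell death was the state the H2O2 was meant to bring about, and in RNA from a whole culture fewer cells of a kind and less RNA per cell cannot be told apart. The 4 arrays lay on 1 slide in the order of dose, so position and dose cannot be told apart.

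Each array held 43379 noncontrol spots, none saturated, and 51.8 to 54.9% of probes were well above background. Their signals had a 75th percentile of 180 in the control and 168, 158 and 121 at 0.003, 0.006 and 0.009% H2O2. Scaled values are log2 signals relative to that percentile of the same array. A difference is given with the scanner software's spot error. That error is the software's own estimate for the reading of a spot, not a spread measured here. It covers nothing else, so 2 spot errors are a yardstick of size and not a test. Of 13 tubule epithelium markers with a named probe, 7 to 9 were well above background on an array, but markers such as Epcam, Cldn7 and Pax8 were on none. Their summed level was 85.5 times the 75th percentile in the control and 69.2, 57.1 and 51.5 times at the 3 doses. Of 12 proximal tubule markers 6 or 7 were, at a summed level of 5.14 in the control and 2.97, 3.31 and 4.14 at the 3 doses. Of 6 fibroblast markers, 3 were well above background on every array and Thy1, Dcn and Lum on none, and their summed level was 32.1 in the control and 9.25, 13.3 and 19.7 times the 75th percentile at the 3 doses. For endothelium 1 of 3 markers was well above background, at a summed level of 0.135 in the control and 0.233, 0.290 and 0.363 at the 3 doses. For macrophages and leukocytes 2 to 4 of 6 markers were, at a summed level of 42.2 in the control and 27.2, 22.5 and 23.5 at the 3 doses. The part of these markers in the values below was not tested.

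AP-1 is a family of dimers built from leucine zipper proteins. Jun proteins pair with each other or with a Fos protein, whereas Fos proteins need a Jun partner to bind DNA. The genes for Fos, Jun, Junb and Atf3 are immediate early genes, switched on within minutes by growth factors, oxidants or other stresses and usually silent again soon after. Fosl1 and Fosl2 encode the Fos-related antigens Fra-1 and Fra-2, which lack the strong activation domains of Fos, and Fosl1 is itself a target of AP-1. JunB and JunD often oppose c-Jun in control of cell growth. ATF3, a related leucine zipper protein of the ATF/CREB family, represses as a homodimer and can activate when paired with a Jun protein. Oxidants can reach these genes through the MAP kinases, among other routes. These kinases act on proteins already in the cell, a step that RNA arrays do not read.

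The start regions of 3 genes are shown because the genes differ widely in response: Fosl1 was the member furthest above the control, and Junb and Jund stayed within 2-fold of it with the percentile scaling. The sequences are RefSeq's on the rat GRCr8 assembly, from 250 bases before to 50 bases after the start of the gene, written 5′ to 3′ along the gene. Of the 7 members, 4 matched an entry in that table by symbol: these 3 and Fosl2. Capitals mark letters equal to the cAMP response element TGACGTCA or its shorter core TGACG, read on both strands, so that CGTCA is the core on the other strand, and the TATA box TATAAA, read on the gene's strand. The AP-1 motif TGANTCA was searched on both strands as well.
Fosl1, chr1:212183635-212183934, plus strand: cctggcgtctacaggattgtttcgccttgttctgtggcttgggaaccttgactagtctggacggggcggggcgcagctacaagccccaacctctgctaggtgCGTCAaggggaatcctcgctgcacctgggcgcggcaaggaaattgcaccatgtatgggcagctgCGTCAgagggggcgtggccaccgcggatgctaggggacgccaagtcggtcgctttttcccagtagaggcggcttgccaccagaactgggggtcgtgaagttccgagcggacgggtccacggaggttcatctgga
Junb, chr19:40080876-40081175, plus strand: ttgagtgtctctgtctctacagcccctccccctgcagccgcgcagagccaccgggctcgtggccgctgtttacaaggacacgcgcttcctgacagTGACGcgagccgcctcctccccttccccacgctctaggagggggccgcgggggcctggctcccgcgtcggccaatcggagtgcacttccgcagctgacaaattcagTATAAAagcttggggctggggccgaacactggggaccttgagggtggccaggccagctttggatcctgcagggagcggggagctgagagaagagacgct
Jund, chr16:18769722-18770021, minus strand: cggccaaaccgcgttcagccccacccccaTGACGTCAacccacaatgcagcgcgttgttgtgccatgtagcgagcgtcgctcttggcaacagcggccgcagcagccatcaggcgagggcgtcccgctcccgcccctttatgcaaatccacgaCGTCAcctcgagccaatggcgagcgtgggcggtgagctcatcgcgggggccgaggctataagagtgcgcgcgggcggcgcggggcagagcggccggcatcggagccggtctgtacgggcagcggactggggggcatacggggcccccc

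The Fosl1 window held the core TGACG at 148 and at 84 bases before the start, both on the other strand. The second of these lies inside a match to the loose antioxidant response element TGACNNNGC, read on both strands. The Junb window held TGACG at 155 and TATAAA at 49 bases before the start. The Jund window held the full TGACGTCA at 221 bases before the start, a match that contains the core on both strands, and 1 more core at 98 bases before it. Fosl2, at chr6:30039220-30039519 on the minus strand, held none of these 4 motifs, and TGANTCA was in none of the 4 windows. Among 33469 rat start regions of the same length, TGACG was in 21.2%, TGACGTCA in 1.83%, TATAAA in 8.80%, TGANTCA in 7.33% and TGACNNNGC in 12.1%. A match is a run of letters and not a measured binding site.

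Fosl1 stood furthest from the control of all members and was near the top of the features measured on both arrays compared. Features too dim on an array were not ranked. Its probe, A_42_P693821, read 18.4 in the control and 6433, 7065 and 3609 at 0.003, 0.006 and 0.009% H2O2, with spot errors of 2.89, 643, 707 and 361 in the same order. The control reading was faint, 1.79 times the lowest signal called well above background on that array, and the 3 treated readings all lay far above it. Relative to the 75th percentile, the log2 level was -3.29 in the control and 5.26, 5.48 and 4.90 at the 3 doses. The difference from the control was therefore 8.56, 8.78 and 8.19, each with a spot error of 0.27. Fosl1 ranked first among 18997 features measured on both arrays at 0.003%, first among 18638 at 0.006% and second among 19059 at 0.009%. A model-based background correction, normexp, gave 6.46, 6.61 and 5.89 in place of these values, so the size of the fold depends on how the faint control spot is read. Between 0.006 and 0.009% Fosl1 was lower, by a log2 difference of -0.59 with a spot error of 0.20, and its raw signal was lower as well.

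Atf3 came next. Its probe, A_43_P11616, read 279 in the control and 7400, 10415 and 9795 at the 3 doses. After scaling, each higher dose stood above the one before, with differences from the control of 4.84, 5.41 and 5.71 (spot error 0.20 each). The last step, between 0.006 and 0.009%, was 0.29 with a spot error of 0.20, less than 2 spot errors. With spike-in scaling it ran the other way, with 4.87 at 0.006% and 4.53 at 0.009% above the control. The raw signal of Atf3 was likewise lower at 0.009% than at 0.006%. Unlike Fosl1, its control signal was 27.2 times the lowest signal called well above background. Among named genes measured on both arrays, Atf3 ranked 5 from the top at every dose.

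Fos and Jun, the genes of the c-Fos and c-Jun partners, had nearly the same pattern. The Fos probe, A_44_P495480, read 713 in the control and 1622, 2339 and 2447 at the 3 doses. The Jun probe, A_42_P741027, read 1905 in the control and 4353, 6098 and 6586. Both raw signals were higher at each further dose, where those of Fosl1 and Atf3 were lower at 0.009% than at 0.006%. The scaled difference of Fos from the control was 1.29, 1.90 and 2.35, each with a spot error of 0.20. That of Jun was 1.30, 1.87 and 2.36, with spot errors of 0.07, 0.06 and 0.06. These are errors of a mean over the probe's spots, taken as independent, so they are smaller than those of Fos, read from 1 spot. In folds, Fos was 2.45, 3.74 and 5.10 times the control and Jun 2.46, 3.65 and 5.14 times the control. Of the features measured on both arrays, 9.07% stood above Fos at 0.003%, 3.16% at 0.006% and 1.36% at 0.009%, so its place among all features moved up with dose. With spike-in scaling the top dose was not the highest: Fos was at 1.36 at 0.006% and 1.18 at 0.009%, and Jun at 1.33 and 1.19.

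**Figure D1:**
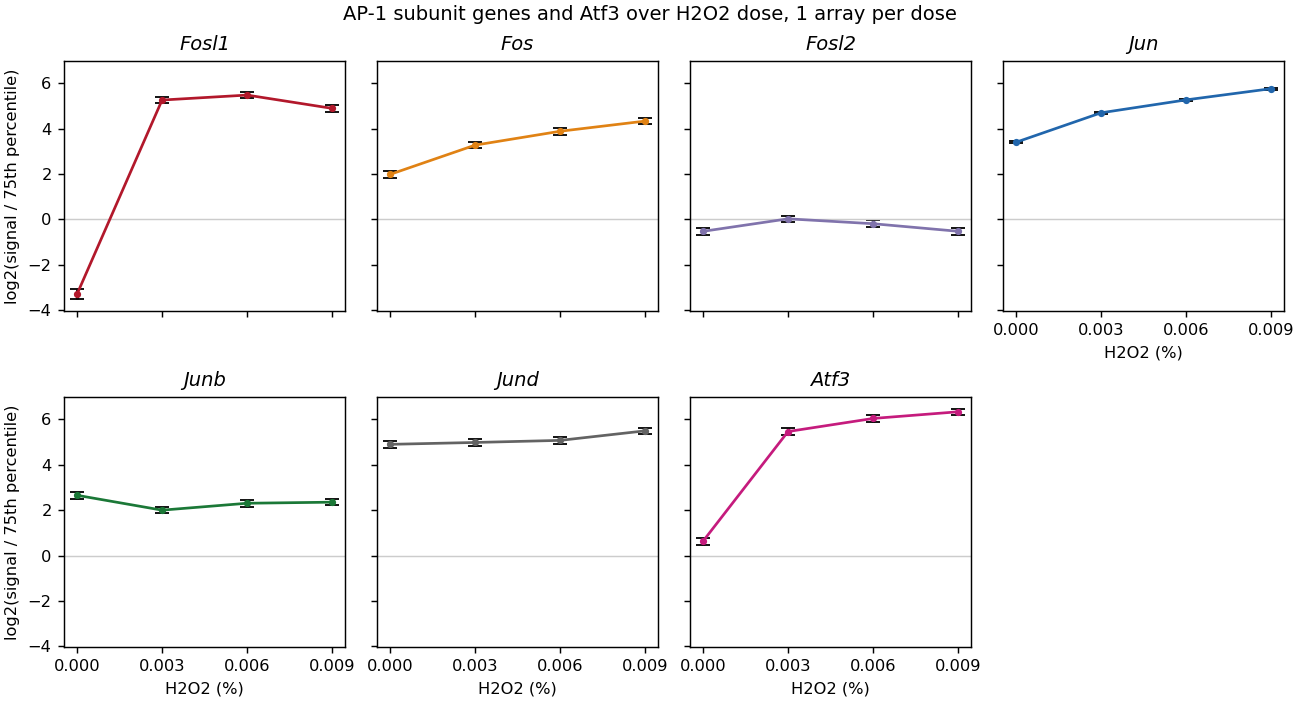
Level of each of the 7 genes on each array, as log2 of the signal over the array's 75th percentile (vertical axis), against H2O2 dose in percent (horizontal axis). Each point is 1 array and bars are the scanner's spot error. Fosl1 and Atf3 are well above their control points at every dose, Fos and Jun climb step by step from 1.98 and 3.40 in the control, and Fosl2, Junb and Jund stay within 1 log2 unit of theirs.

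The Jun probe was printed as 10 spots on each array, which gives a direct view of the reading error. The raw spot signals ran from 1437 to 2065 in the control. They ran from 4179 to 4539 at 0.003% for the 8 spots used, 2 more having been marked as outliers by the scanner software and left out. At 0.006% they ran from 5713 to 6342 and at 0.009% from 6205 to 6917, so the upper pair of doses overlapped before scaling. Divided by the 75th percentile of their array, the spots ran from 7.97 to 11.5 in the control and from 24.9 to 27.1, 36.1 to 40.1 and 51.2 to 57.0 at the 3 doses. These ranges did not overlap. On the log2 scale the standard deviation of the spots used was 0.15 in the control and 0.04, 0.05 and 0.05 at the 3 doses. The 10 spots share 1 culture and 1 array, so they are repeats of a reading and not replicates of a dose.

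**Figure D2:**
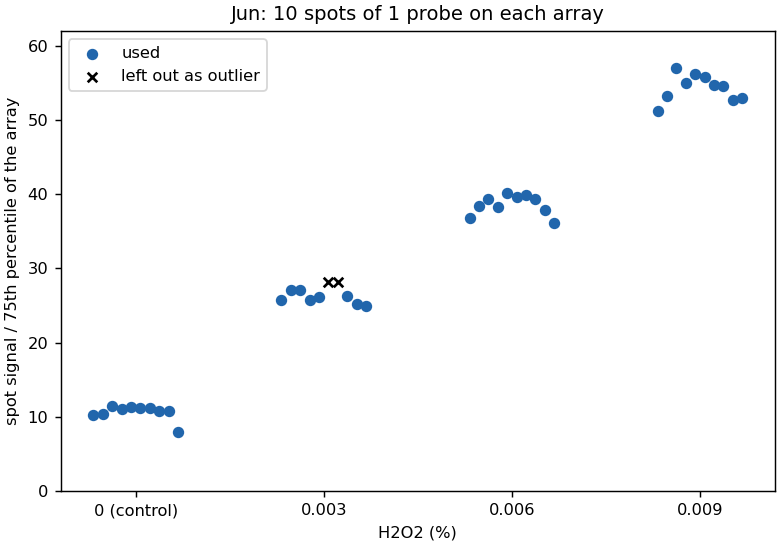
Signal of each Jun spot divided by the 75th percentile of its array (vertical axis) by H2O2 dose (horizontal axis). Circles are the spots used, with crosses for the 2 spots left out at 0.003%, and the 4 sets do not overlap, the control set ending at 11.5 and the 0.009% set beginning at 51.2.

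A ratio of 2 genes on the same array does not depend on the factor by which an array is scaled, though background correction and quantile normalization can move it. The log2 ratio of Fos to Jun differed from its control value by -0.01, 0.03 and -0.01 at the 3 doses, against a spot error of 0.21, which leaves room for unequal shifts of up to about that size. The ratio of Jun to Junb, by contrast, was higher than in the control by 1.95, 2.22 and 2.67 on the log2 scale (spot error 0.21), and that of Fos to Junb by 1.95, 2.25 and 2.65. Jun over Jund was higher by 1.22, 1.69 and 1.77. Within the Fos branch, the ratio of Fosl1 to Fosl2 was 257, 347 and 291 times its control value, and 71.1, 84.5 and 56.9 times with normexp. Of the 21 pairs that 7 genes make, 16, 17 and 17 had a ratio at least 2-fold away from its control value at 0.003, 0.006 and 0.009%. These counts restate the differences of the single genes, since a ratio moves when only 1 of its genes does. The share over other gene pairs was not computed, so the counts are not a separate result. Fos with Jun was the one pair within 2 spot errors of its control ratio at all 3 doses.

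The other 3 members stayed within 2-fold of the control with the percentile scaling. Fosl2 (probe A_44_P101792) read 125 in the control and 171, 139 and 84.4 at the 3 doses. Its scaled difference from the control was 0.55, 0.34 and 0.00, with a spot error of 0.21 each time. It was thus above the control by more than 2 spot errors at 0.003% and by less at the higher doses, and its sign was negative with spike-in scaling at 0.006% (-0.20) and with several scalings at 0.009%.

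Junb (probe A_43_P12125), an immediate early gene like Jun, was the member below the control at every dose. It read 1135 in the control and 670, 781 and 619 at the 3 doses. Its scaled difference was -0.65, -0.35 and -0.30, each with a spot error of 0.20, so that it exceeded 2 spot errors at 0.003% only. The sign was negative under every scaling tried, which placed it between -1.48 and -0.29 at 0.009%.

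Jund (probe A_42_P537443), the subunit gene that resting cells commonly transcribe, had nearly equal raw readings of 5385 in the control and 5300, 5331 and 5472 at the 3 doses. Because the 75th percentile was lower at each higher dose, scaling turned these into differences of 0.08, 0.17 and 0.60 (spot error 0.20). The first 2 lay within 1 spot error of the control and were below 0 with array median, spike-in or no scaling, and the last was -0.58 with spike-in scaling. A second Jund probe, A_43_P15517, gave 0.36, 0.53 and 0.59.

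Counted together, Fosl1, Atf3, Fos and Jun, 4 of the 7, were at least 2-fold higher than the control at every dose. With the percentile scaling no member was at least 2-fold lower, but with spike-in scaling at 0.009% Junb (-1.48) and Fosl2 (-1.17) were. The background was 15.2, 15.0 and 16.5% of all features at least 2-fold higher and 13.5, 10.5 and 7.52% at least 2-fold lower at 0.003, 0.006 and 0.009%. The median difference of the 7 was 1.29, 1.87 and 2.35, beside 0.03, 0.01 and 0.13 over all features compared. The 2-fold limit is a rule of size, since 1 array per dose allows no test of a single dose, and the 3 comparisons share the control array. Because the members were chosen with earlier results of these data known, their count beside the background is a description and not a test. All 4 genes kept at least 2-fold under every scaling, background and spot setting tried. Among them the smallest value was 1.10, for Fos at 0.003% with spike-in scaling.

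**Figure D3:**
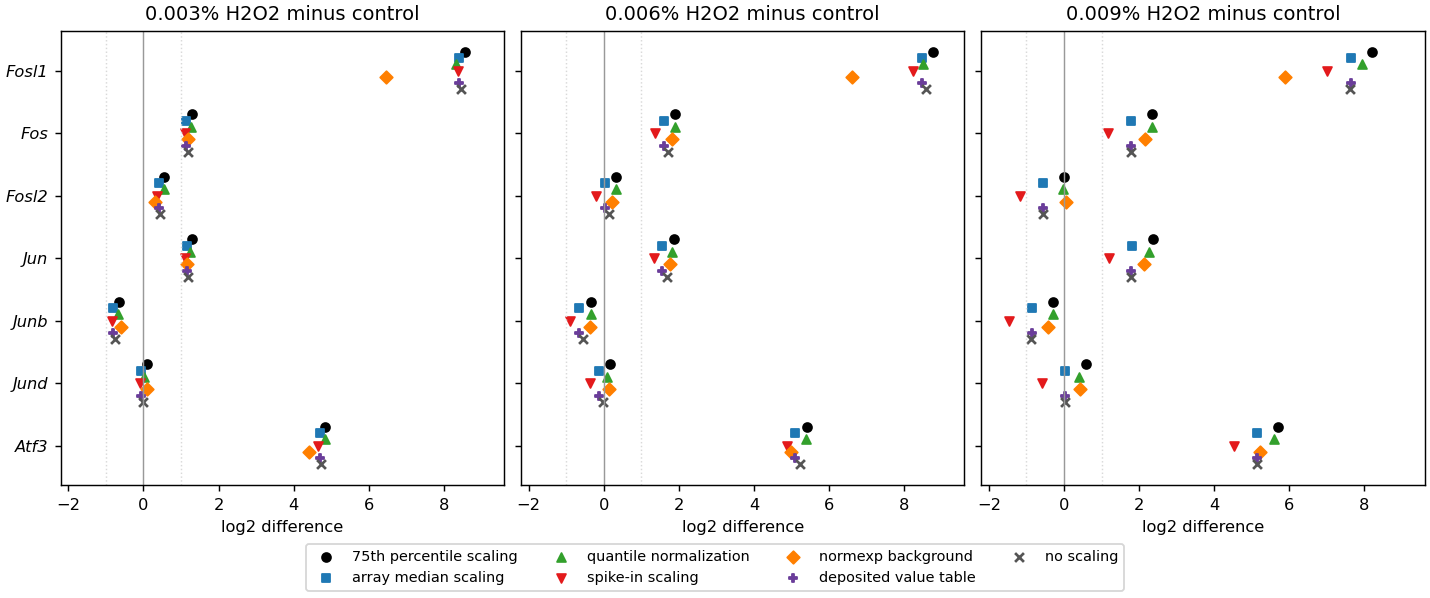
Log2 difference from the control (horizontal axis) of each gene (vertical axis) at 0.003, 0.006 and 0.009% H2O2, 1 panel per dose and 1 symbol per way of scaling or correcting the arrays. Dotted lines mark 2-fold. Fosl1, Atf3, Fos and Jun lie right of the upper line with every symbol, normexp pulls Fosl1 in to between 5.89 and 6.61, and Fosl2 and Jund have symbols on both sides of 0 at 0.009%.

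The highest and lowest doses were also set against each other, which leaves out the control array. At 0.009% against 0.003%, Fos was higher by 1.06 (spot error 0.20), Jun by 1.06 (0.07), Atf3 by 0.87 (0.20), Jund by 0.51 (0.20) and Junb by 0.35 (0.20). Fosl2 was at -0.55 (0.21) and Fosl1 at -0.37 (0.20). Fos and Jun were at least 2-fold higher, as were 12.3% of all features, and no member was at least 2-fold lower, against 5.51% of all features. Among named genes alone these shares were 8.88 and 5.61%. These sizes rest on the scaling: with array median, spike-in, normexp or no scaling, or the authors' deposited table, neither gene reached 2-fold. The direction turns too: with spike-in scaling Atf3 was at -0.12 and Jund at -0.48, and Junb was below 0 with array median, spike-in or no scaling and the deposited table. In the ratio on the same array, where a scaling factor cancels, Fosl1 over Atf3 was lower at 0.009% than at 0.003% by a log2 difference of -1.24 (spot error 0.29), and Fosl1 over Fos by -1.43. With normexp these were -1.39 and -1.54, and with quantile normalization -1.16 and -1.48. Relative to Atf3 and Fos, then, Fosl1 was lower at the top dose by more than 2 spot errors.

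**Figure D4:**
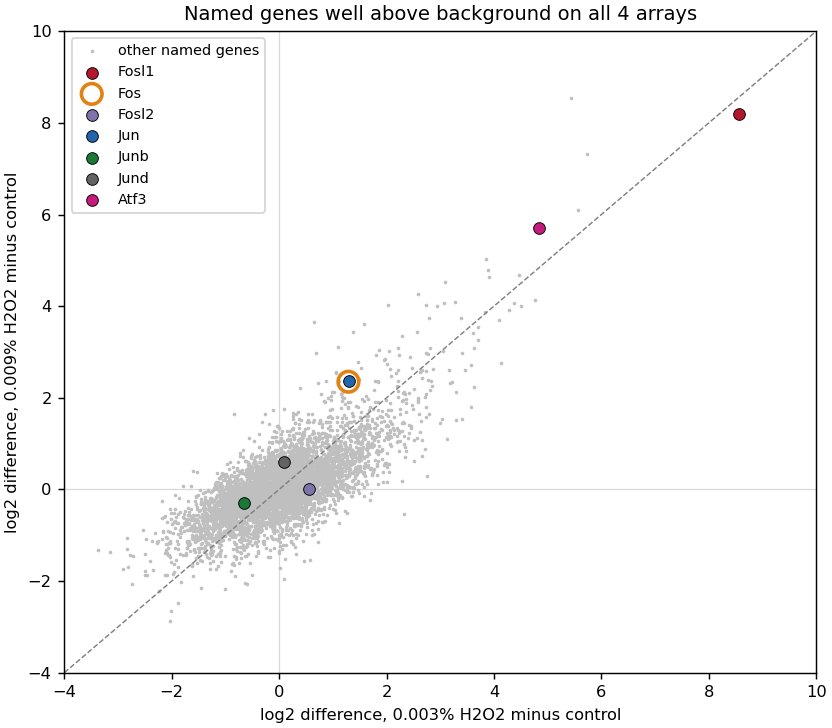
Log2 difference from the control at 0.009% H2O2 (vertical axis) against that at 0.003% (horizontal axis), for named genes well above background on all 4 arrays. Grey points are other genes, coloured points are the 7 members, and the dashed line marks equal differences. Fosl1 lies just below the line at 8.56 and 8.19, Atf3 above it at 4.84 and 5.71, and the ring for Fos encloses the point for Jun.

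A straight line over the 4 doses was fitted to every feature with limma, with 2 residual degrees of freedom. It called none of 23767 features (0.00%) at a Benjamini-Hochberg threshold of 0.05, the members included, while 3261 (13.7%) had an unadjusted p under 0.05. The slope per 0.003% step was 0.77 for Fos and 0.77 for Jun on the log2 scale, each with a limma adjusted p of 0.26. It was 1.77 for Atf3 (limma adjusted p = 0.32) and 2.48 for Fosl1 (limma adjusted p = 0.41), whose levels depart from a line between the control and the first dose. For Jund it was 0.19 (limma adjusted p = 0.53), for Fosl2 -0.02 (0.97) and for Junb -0.06 (0.88). No member's trend therefore passed the test.

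Likeness between genes was measured as the Euclidean distance over the 3 differences from the control, among 4986 named genes well above background on all 4 arrays. All of these differences share the control array. Fos and Jun were each other's nearest gene, at 0.04, which is less than the spot error of Fos alone. Slc5a3, a transporter of myo-inositol, was next for both, at 0.08 from Fos and 0.11 from Jun, and Lgals7, a galectin, after it at 0.21 from each. With quantile normalization Slc5a3, and with normexp Gnrh1, was nearer to Fos than Jun was, and Fos stayed the nearest gene to Jun under each setting. Within 1 log2 unit lay 77 genes for Fos and 78 for Jun.

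Fosl1 and Atf3 had no named gene within that distance. The nearest to Fosl1 were Hspa1a, an inducible HSP70 chaperone, at 3.46, Ampd1, a muscle AMP deaminase, at 3.60, and Hmox1, haem oxygenase 1, at 4.50. Hspa1a differs from Fosl1 in order over dose, with 5.44, 7.31 and 8.54 above the control. Hspa1a has a near-identical copy, Hspa1b, and whether the probe also reads that copy was not tested. The nearest to Atf3 were Hmox1 at 1.10, Ppp1r15a, the GADD34 phosphatase subunit of the integrated stress response, at 1.23, and Zfand2a, a zinc finger protein of the heat shock and arsenite response, at 1.40. Fosl2, Junb and Jund sat in the crowded middle, with 2029, 2242 and 1961 genes within 1 log2 unit. Among their nearest were Vps4b, Fnta and Bicd2 for Fosl2, Ap3m1 and Ndufv1 for Junb, and Vom2r40, Gstk1 and Or14a258 for Jund, all closer than the spot error of the member itself.

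Other leucine zipper factors were read from a list of 43, of which 26 had a named probe and 20, 21 and 22 were measured at the 3 doses. Like the members, this list and those below were chosen with earlier results of these data known. At least 2-fold higher were 11, 11 and 11, and lower 1, 1 and 0, where the background among named genes was 16.1, 14.8 and 13.8% higher and 12.0, 8.05 and 5.16% lower. At 0.009% the count was 6 higher and 3 lower with array median scaling or the deposited table, and 3 higher and 5 lower with spike-in scaling. The list's median difference was 1.60, 1.43 and 1.08, and -0.01 with spike-in scaling at 0.009%. At 0.009% Atf4, the translation-controlled factor of the integrated stress response, was 2.64 above the control. Atf5, its relative, was at 2.43, Ddit3, the CHOP factor, at 2.31, and Mafk, a small Maf protein that pairs with NRF2, at 2.12. The one lower factor was Dbp, a factor of the circadian clock, at -1.32 and -1.20 at 0.003 and 0.006%.

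Of 28 genes of the MAP kinase cascade above AP-1, 16 had a named probe and 12 were measured. At least 2-fold higher were 2, 1 and 0 and lower 2, 1 and 0 over the 3 doses, beside 16.1, 14.8 and 13.8% of named genes higher and 12.0, 8.05 and 5.16% lower. The number lower rests on the scaling: at 0.006% it was 3 with array median scaling or the deposited table and 6 with spike-in scaling, and at 0.009% 5 and 11. Among the higher was Map2k4, a kinase that activates JNK, at 1.26 at 0.003%. Lower were Mapk3, the kinase ERK1, at -1.22 at 0.003%, and Map2k6, which activates p38, not well above background on the treated arrays at 0.003 and 0.006% and bounded at -2.22 and -1.78. The list's median was -0.28, -0.47 and -0.31, and -1.49 with spike-in scaling at 0.009%. At 0.009% the largest differences in the list were those of Mapk14, the p38 alpha kinase, at -0.90, Map3k11, the mixed-lineage kinase MLK3, at -0.80, and Mapk3 at -0.64.

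Of 16 factors known to bind the Fos and Jun promoters, 8 had a named probe and all 8 were measured. At least 2-fold higher were 3, 3 and 2, and lower 1, 1 and 1, against the same 16.1, 14.8 and 13.8% higher and 12.0, 8.05 and 5.16% lower among named genes. At 0.009% 1 was higher with array median, quantile, spike-in or normexp settings or the deposited table, and 3 were lower with spike-in scaling. Egr1, an immediate early zinc finger factor, was higher at each further dose, at 2.03, 3.17 and 4.03. Fos and Jun also had that order over dose with the percentile scaling, though not with spike-in scaling. Atf2, the partner of Jun at the Jun promoter, was instead lower at each further dose, at 2.06, 1.64 and 1.16, and Creb1 at 1.67, 1.43 and 1.00, just under 2-fold at 0.009%. Atf2 and Creb1 also belong to the leucine zipper list. The list's median was 0.84, 0.63 and 0.62, and -0.56 with spike-in scaling at 0.009%.

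Of 46 genes commonly described as AP-1 targets, 42 had a named probe, and 32, 33 and 32 were measured. At least 2-fold higher were 17, 16 and 14, and lower 2, 1 and 1, over the same background among named genes. At 0.009% the count was 9 higher and 6 lower with array median scaling or the deposited table, and 5 higher and 10 lower with spike-in scaling. With normexp 10 were higher at 0.003% and the median there was 0.49. Some targets were dim in the control and entered through their treated signal alone. Among targets well above background on both arrays, 13 were higher at 0.003% and 10 at 0.006%, with medians of 0.59 and 0.52. The list's median was 1.26, 0.98 and 0.74 and so was lower at each further dose, while the median of the 7 members was higher at each with the percentile scaling. The list's median was -0.33 with spike-in scaling at 0.009%. Ptgs2, which encodes the cyclooxygenase COX-2, was not well above background in the control and was at least 21.8-fold higher at 0.009%. Cdkn1a, the p21 cell cycle inhibitor and also a p53 target, was there 13.0-fold above the control, Vegfa, an angiogenic growth factor, 9.58-fold, and Krt18, an epithelial keratin, 8.55-fold. The Krt18 control signal was faint, at 11.6 where the lowest signal called well above background was 10.2. The log2 difference of Krt18 had a spot error of 0.34, and the size of its fold depends on that faint reading. Ccnd1, which encodes cyclin D1, was lower at -1.03 at 0.003%, Tgfb1 at -1.08 and -1.08 at 0.003 and 0.006%, and Tgfa, a ligand of the EGF receptor, at -1.41 at 0.009%. These genes answer to other factors as well, so the list is described beside the members and not as a reading of AP-1 activity.

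**Figure D5:**
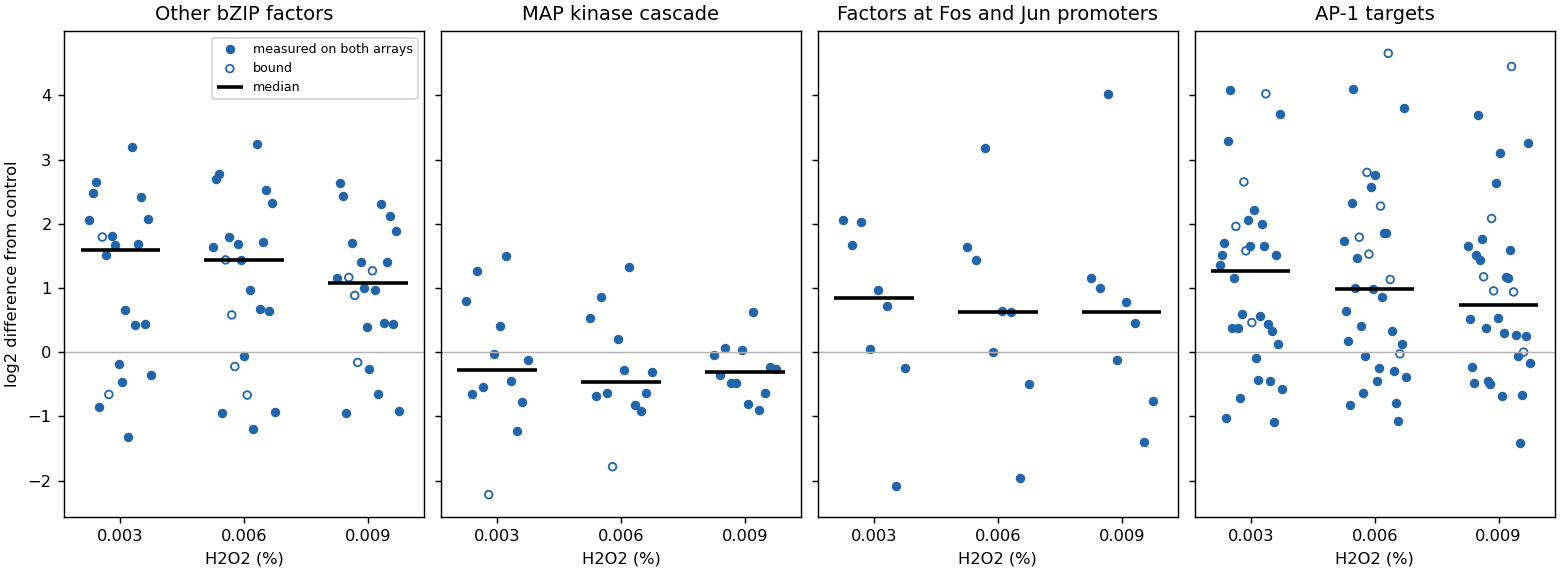
Log2 difference from the control (vertical axis) of each measured gene of the 4 lists at 0.003, 0.006 and 0.009% H2O2 (horizontal axis). Filled points were measured on both arrays, open points are bounds, and bars are medians. With this percentile scaling the leucine zipper and target lists have medians between 0.74 and 1.60 (spike-in scaling turns them to -0.01 and -0.33 at 0.009%), and the MAP kinase list has medians between -0.47 and -0.28. These medians include the bounds. Among targets well above background on both arrays the median was 0.59 at 0.003% and 0.52 at 0.006%.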

How the data were processed

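Per the file headers, the authors read 1-colour (Cy3) arrays of design 014879 with version 10.7.3.1 of Agilent Feature Extraction, protocol GE1_107_Sep09. Each deposited spot signal is a linear intensity after background subtraction and detrending, not scaled between arrays. The deposited value table is a linear ratio: in 100% of probes it equalled the mean processed signal over the array's median noncontrol signal, to within 1e-06 of the value. It was used as an alternative. Its column medians were 0.962, 0.955, 0.965 and 0.972 from the control to 0.009%.

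Outlier spots were left out, log2 signals of a probe's spots were averaged, and each array was scaled to its own 75th percentile on the log2 scale. Of 41012 probes 41007 were used, and 10834 (26.4%) were named through RefSeq accessions, giving 8963 genes. Unnamed probes were kept, and a probe or gene is called a feature (39136 in all). Of a gene's probes that were well above background somewhere, the brightest stood for the gene. The array's own annotation is on an older build (rn4), so its positions are not given. A feature entered a comparison if 1 of its arrays or both had it well above background; a side below background was set to the higher of its value and the array's lowest signal well above background, which gives a bound. Ranks used features measured on both arrays.

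The trend used lmFit and eBayes of limma 3.58.1, run in R 4.3.3, with a Benjamini-Hochberg threshold of 0.05, tested on simulated data. Other values used Python 3.11.15, numpy 2.4.6, pandas 2.3.3 and matplotlib 3.10.9. Alternatives were array median, quantile and spike-in scaling (7 probes), normexp with an offset of 50, the deposited table, the mean over a gene's probes, outlier spots kept, other filters, and arrays left out of the trend. Normexp used median spot signals, since mean signals were not among the columns used here. A further alternative, leaving the arrays unscaled, was added after seeing the data.

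The members and lists were chosen with earlier results of these data known. Besides the members, the text names the 4 measured genes of each list with the largest difference at 0.009%, genes that account for a count of 5 or fewer, and the 3 nearest genes to each member. A few genes that this rule or the marker lists name are not reported here. Precision is limited by there being 1 array per dose.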

Additional observations from a re-analysis of the deposited data

How the results depend on the processing

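With 1 array per dose nothing was replicated. No paired analysis was possible because each dose had 1 array and no replicate number. Other scalings moved the median of all features, at 0.009% by -0.56 with array median, -1.18 with spike-in, -0.13 with quantile, -0.12 with normexp and -0.57 with no scaling, and the members are read against that shift. The share of features at least 2-fold higher and lower at 0.009% was 16.5 and 7.52% as reported, 6.04 and 22.7% with array median, 9.86 and 11.3% with quantile, 2.46 and 50.7% with spike-in, and 4.22 and 3.46% with normexp. The 4 members at least 2-fold higher were 4 under every alternative, and with spike-in scaling 2 members were at least 2-fold lower at 0.009%. At 0.009% against 0.003%, 0 members were at least 2-fold higher with array median, spike-in, normexp, no scaling or the deposited table, and 2 with spike-in and 1 with no scaling were at least 2-fold lower. Jund turned at 0.003% to -0.064 (array median and deposited table), -0.10 (spike-in) and -0.023 (no scaling), at 0.006% to -0.14, -0.37 and -0.015 in the same order, and at 0.009% to -0.58 with spike-in. Fosl2 turned at 0.006% to -0.20 with spike-in, and at 0.009% to -0.56 (array median and deposited table), -0.022 (quantile), -1.17 (spike-in) and -0.57 (no scaling). Between the highest and lowest doses Junb turned to -0.064 (array median and deposited table), -0.64 (spike-in) and -0.11 (no scaling), and with spike-in Jund turned to -0.48 and Atf3 to -0.12. With spike-in scaling at 0.009% the list medians turned to -0.0093 (leucine zipper factors), -0.56 (promoter-binding factors) and -0.33 (targets). The spike-in and median shifts act on every feature alike; beyond that the cause was not tested. The straight-line trend called 0 features under every alternative, with 2329 to 9963 at an unadjusted p under 0.05. The control was also set against the mean of the treated arrays, a contrast and not a trend. The log2 difference was then 8.51 for Fosl1, 5.32 for Atf3, 1.85 for Fos and 1.84 for Jun. It was 0.30 for Fosl2, 0.28 for Jund and -0.44 for Junb. With 1 control array, no test of that contrast is given.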

Other observations

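The genes beside the members in gene order on the GRCr8 assembly were read as well, by a rule added after the data were seen. Tmed10, a cargo receptor of the secretory pathway next to Fos, was at -0.02, 0.27 and 0.14 from the control at 0.003, 0.006 and 0.009% H2O2, where Fos was at 1.29, 1.90 and 2.35. Jdp2, a leucine zipper repressor of AP-1 on the other side of Fos, was at 0.42, 0.68 and 0.45. Drap1, the second gene before Fosl1, was at 0.08, 0.04 and 0.20, and Fibp, the second gene after it, at -1.07, -0.85 and -0.59. Nenf, the second gene after Atf3, was at -0.44, -0.18 and 0.31. Batf3, a leucine zipper gene next to Atf3, was not well above background on any array. Prdx2, a peroxiredoxin that breaks down peroxide and lies next to Junb, was at -0.27, -0.11 and 0.30. Of the immediate and second neighbours with a named probe well above background on all 4 arrays, none was 2-fold above the control at any dose. At least 2-fold below it were Fibp at 0.003%, Bles03, next to Fosl1, at 0.009% (-1.11), Fggy, next to Jun, at 0.003% (-1.16), and Pgpep1, the second gene after Jund, at 0.006% (-1.07). Among named genes 16.1, 14.8 and 13.8% were at least 2-fold higher and 12.0, 8.05 and 5.16% lower at 0.003, 0.006 and 0.009%. The neighbours are too few for their counts to be read as a difference from those shares. Neighbours without a named probe were not analysed here.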
